A study of Mus musculus with 56 samples.

Results

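The 10 genes of DNA replication described here were followed through the reprogramming of mouse fibroblasts, namely Mcm2, Mcm3, Mcm4, Mcm5, Mcm6, Mcm7, Cdc45, Pcna, Rrm1 and Rrm2. They were chosen by name, and all 10 were found among the 13451 genes of the table of sorted cells and among the 12935 genes of the day 10 table. The starting cells were OG2-MEFs, mouse embryonic fibroblasts whose Oct4-GFP reporter turns green when Oct4 is switched on. For the sorted series a doxycycline-inducible lentivirus delivered Oct4, Sox2, Klf4 and Myc (OSKM) together with rtTA, and cells grew in stem cell medium with vitamin C and doxycycline. All cells of that series also carried an shRNA, either against luciferase (shLuci, the control) or against Ctcf (shCTCF). Cells were taken unsorted on day 0 (D0), as Thy1+, SSEA1-Thy1- (double-negative) and SSEA1+ cells on days 3, 6 and 9, and as GFP+ cells on day 12. Thy1 is a fibroblast surface protein, and SSEA1 is a sugar epitope that appears on cells on the way to pluripotency. This gives 11 populations with each shRNA, or 22 groups of 2 libraries and 44 libraries in all. A second series of unsorted day 10 cells received OSKM from retroviruses with a control, with Ctcf overexpression, or with Ctcf overexpression and a Smarca5 shRNA, 2 libraries each. Nothing in the labels ties the replicates to cultures of their own, so p-values measure the spread between these libraries, which may be technical.

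Replication starts when origins are licensed in G1 by loading the MCM2-7 ring, the core of the replicative helicase. At the start of S phase, Cdc45 and the GINS complex join the ring and switch the helicase on. Pcna is the sliding clamp that holds the polymerases on DNA. Rrm1 and Rrm2 are the large and small subunits of ribonucleotide reductase, which makes the deoxynucleotides, and Rrm2 protein is limited to S and G2 phase in cycling cells. Transcription of most of these genes is under E2F factors, and pluripotent stem cells are known for a short G1 and rapid division.

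The deposited values of both main tables are whole-number scores that the authors normalized and rounded, so that the libraries sum to nearly the same total: 31777102 to 31798964 in the sorted cells and 19465402 to 19479768 at day 10. The sequencing depth of a library can therefore not be read from these values. Scores are not divided by gene length and are compared here only within a gene. Fold changes are differences of log2(score + 1) and are given with their standard error. A gene is called changed where limma's moderated test gave a Benjamini-Hochberg adjusted p under 0.05 over all genes of the table. Ctcf itself was lower with its shRNA in all 11 populations, by a log2 fold change of -0.52 at D0 (libraries at 520 and 616 against 790 and 830) to -1.81 in D12 GFP+ cells (674 and 698 against 2381 and 2441), and was called in each. The 10 fibroblast markers (all 10 measured) summed to 96512 to 103680 in the control D0 libraries and to 13698 to 14535 in the control D12 GFP+ libraries. The 8 pluripotency markers (all 8 measured) summed to 9 to 11 (Lin28a at 0) and to 38232 to 38852 in the same libraries. Of 10 macrophage markers 8 were measured, with sums of 6993 to 8433 in the control D0 libraries and 2114 to 2203 in the control D12 GFP+ libraries, and the part of these markers in any comparison with D0 was not tested. In these bulk samples, fewer cells of a type and less RNA per cell cannot be told apart.

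The 10 genes lie on 8 chromosomes, with pairs only on chromosome 1 (Mcm3 and Mcm6) and chromosome 16 (Mcm4 and Cdc45). RefSeq promoter windows (GRCm38.p6, from 250 bases before to 50 after the start) were at hand for 9 of the 10 genes, with 2 windows for Mcm7 and none for Mcm4. They were searched on both strands for an E2F element (TTTCCCGC, TTTCGCGC, TTTGCCGC or TTTGGCGC), for the CCAAT box bound by NF-Y, and for TTTGAA, the cell-cycle CHR element. An E2F element was found in the windows of 4 genes (Mcm3, Mcm5, Mcm6 and Mcm7), against 2.26% of all 32851 windows of the same length of 300 bases. CCAAT was found for all 9 genes, against 37.4% of all windows, and TTTGAA for Mcm2 and Cdc45, against 17.9%. The upstream 250 bases of the 3 genes with an element before the start are shown first. Rrm2 follows because its levels had another order (below), and last comes the stretch of Mcm3 downstream of its start that holds its 2 elements. Capitals mark E2F elements and CCAAT boxes on either strand (in Mcm3, E2F elements only), and each sequence reads 5′ to 3′ on the gene's strand.
Mcm5 (chr8:75109259-75109508, + strand): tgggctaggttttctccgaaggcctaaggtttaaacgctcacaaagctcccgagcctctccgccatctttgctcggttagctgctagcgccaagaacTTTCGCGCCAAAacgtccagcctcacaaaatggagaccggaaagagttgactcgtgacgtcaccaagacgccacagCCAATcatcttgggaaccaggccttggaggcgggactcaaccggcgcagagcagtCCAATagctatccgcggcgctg
Mcm6 (chr1:128359706-128359955, - strand): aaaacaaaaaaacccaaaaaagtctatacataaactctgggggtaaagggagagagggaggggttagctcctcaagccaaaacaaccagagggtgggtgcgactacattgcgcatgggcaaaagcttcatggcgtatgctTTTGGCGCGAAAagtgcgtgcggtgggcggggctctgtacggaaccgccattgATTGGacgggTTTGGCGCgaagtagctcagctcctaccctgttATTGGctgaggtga
Mcm7 (chr5:138171884-138172133, - strand): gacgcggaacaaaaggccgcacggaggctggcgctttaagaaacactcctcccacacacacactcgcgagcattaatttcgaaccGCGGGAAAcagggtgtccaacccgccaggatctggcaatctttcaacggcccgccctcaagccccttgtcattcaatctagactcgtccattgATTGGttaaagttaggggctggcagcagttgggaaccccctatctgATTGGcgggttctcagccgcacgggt
Rrm2 (chr12:24708004-24708253, + strand): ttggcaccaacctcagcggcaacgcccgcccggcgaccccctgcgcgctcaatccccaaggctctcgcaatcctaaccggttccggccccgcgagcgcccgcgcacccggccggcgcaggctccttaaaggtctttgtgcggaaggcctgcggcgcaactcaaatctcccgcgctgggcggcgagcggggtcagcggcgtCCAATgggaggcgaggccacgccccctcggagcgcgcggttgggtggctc
Mcm3 (chr1:20820267-20820293, - strand): GCGGGAAAacttgggaagtTTTGGCGC

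In Mcm5 and Mcm6, 2 of the elements overlap on opposite strands and share one block of capitals, at positions -153 and -149 of Mcm5 and -110 and -106 of Mcm6, counted back from the base before the start. A further element of Mcm6 is at -47. The first Mcm7 window holds an element at -165 and another at base 17 after its RefSeq start. The windows of Mcm2, Cdc45, Pcna and Rrm1, which are not shown, held no E2F element either. No motif match was tested for binding here, and the absence of E2F elements from the Rrm2 window says nothing of other sequences or of E2F.

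Within each day, the means of the MCM genes in control cells were lowest in Thy1+ cells, intermediate in double-negative cells and highest in SSEA1+ cells, and D12 GFP+ cells were above all other groups. Across days the populations could cross, as for Mcm7, which was higher in double-negative cells of day 6 (3901 and 3930) than in SSEA1+ cells of day 9 (3671 and 3860) or day 3 (3320 and 3797). Mcm2, which carries a histone-binding tail on the MCM ring, scored 1694 and 1784 at D0 and 6544 and 6612 in D12 GFP+ cells. Its other libraries were at 1484 and 1602 (Thy1+), 2136 and 2149 (double-negative) and 3042 and 3156 (SSEA1+) on day 3. On day 6 they were at 1009 and 1034, 2633 and 2790, and 4204 and 4377, and on day 9 at 1094 and 1212, 2062 and 2140, and 3155 and 3282, in the same order of populations. Ranked by group mean, the order was thus D12 GFP+, the SSEA1+ cells of days 6, 9 and 3, the double-negative cells of days 6, 3 and 9, D0, and the Thy1+ cells of days 3, 9 and 6. Only the SSEA1+ cells of days 9 and 3 and the double-negative cells of days 3 and 9 overlapped with their neighbour in that order.

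**Figure D1:**
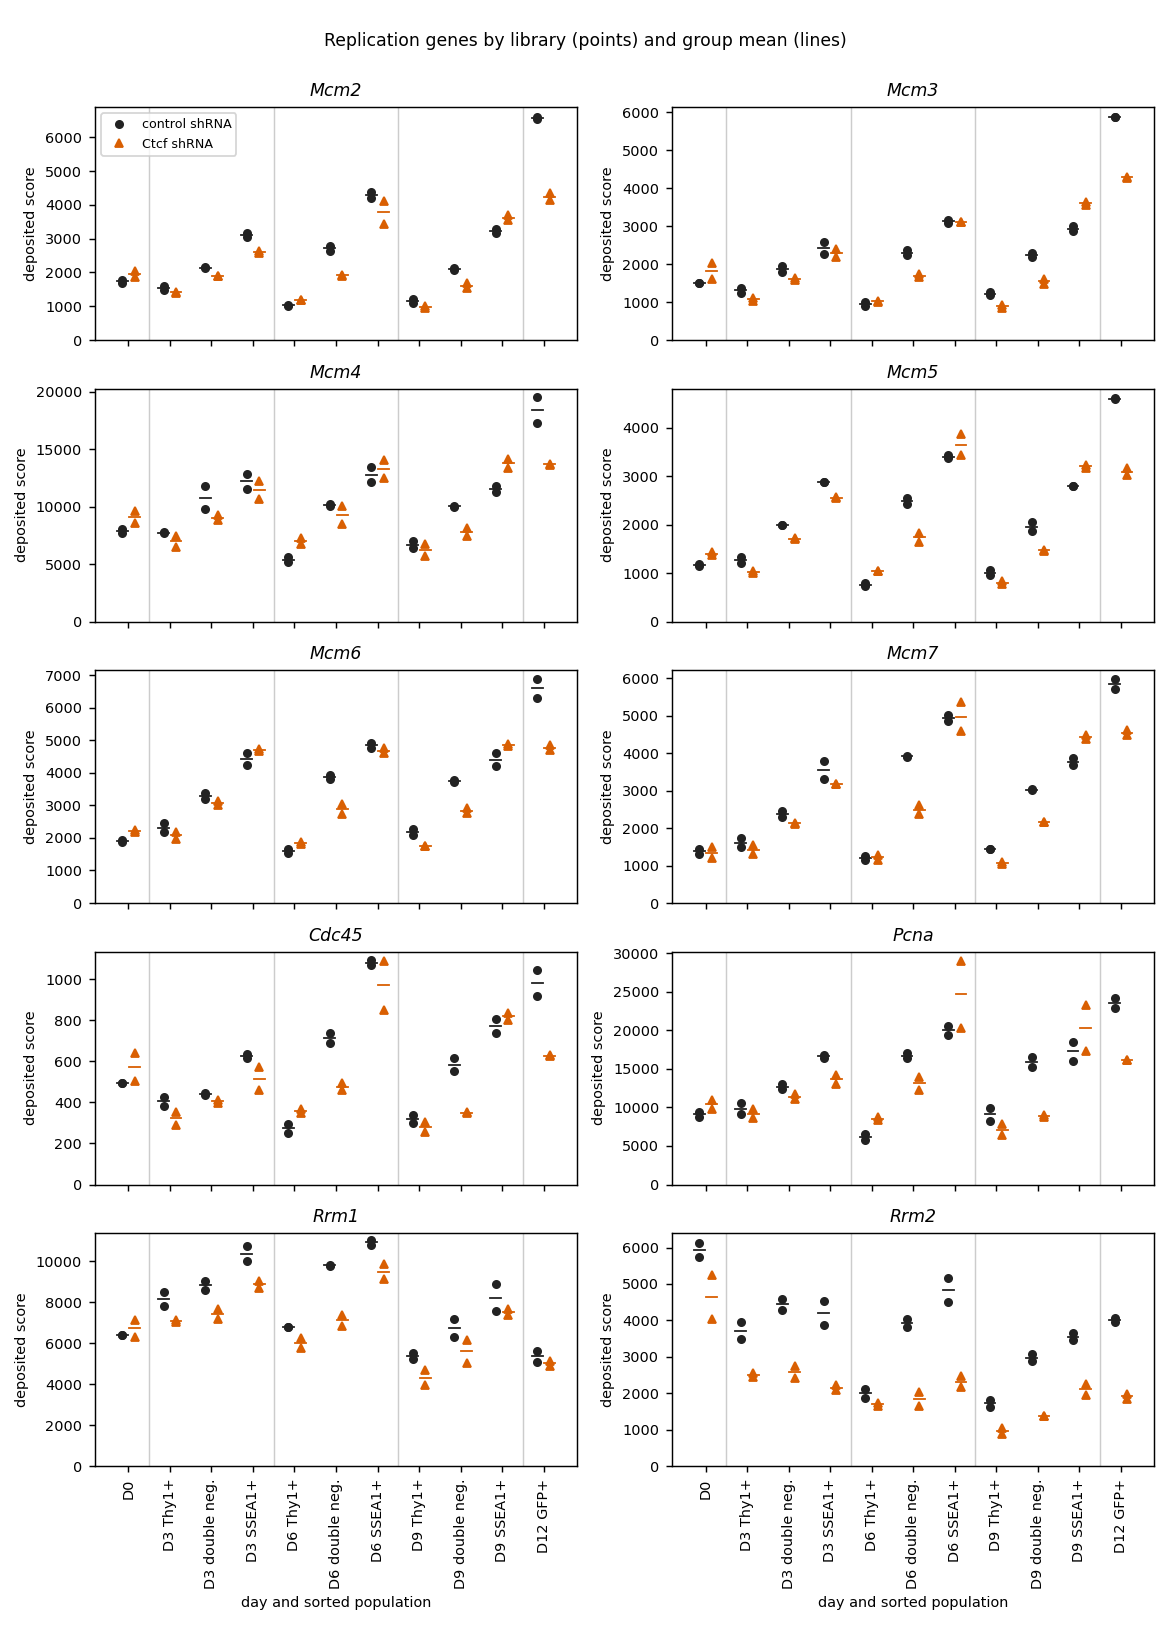
Deposited score (vertical axis, from 0, a separate scale for each gene) of the 10 replication genes by day and sorted population, with one point per library and a line at the mean of 2 libraries, for control shRNA (black circles) and Ctcf shRNA (orange triangles). Mcm2 climbs from 1694 and 1784 at D0 to 6544 and 6612 in control D12 GFP+ cells, whereas control Rrm2 is highest at D0, and its Ctcf shRNA libraries lie below the control libraries in each population.

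The reductase genes had another order. Control Rrm2 was highest at D0 (5747 and 6136). The SSEA1+ cells of day 6 came next (4497 and 5152), and both Thy1+ groups of later days were lowest, at 1877 and 2125 on day 6 and at 1620 and 1816 on day 9. D12 GFP+ cells (3954 and 4076) lay among the double-negative and SSEA1+ cells of days 3 and 6 and the Thy1+ cells of day 3, a run of groups each overlapping its neighbour. Rrm1 peaked in SSEA1+ cells, at 10000 and 10744 on day 3 and 10820 and 11026 on day 6, and was lowest in D12 GFP+ cells (5092 and 5620) and day 9 Thy1+ cells (5232 and 5512), which overlapped.

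Across the 22 group means (log2), each of Mcm2 to Mcm7, Cdc45 and Pcna correlated with the mean of the other 9 genes at r from 0.93 to 0.98, whereas Rrm1 gave 0.46 and Rrm2 0.44. These are descriptions over groups that share populations and normalization. By the same measure, genes of the whole table most like the mean of the 10 included Snrnp40 (r = 0.992), Ruvbl2 (0.986), Ddx27 (0.983), Lyar (0.983), Chtf18 (0.982) and Supt16 (0.981), and also Mad2l1, Prmt5 and Wdhd1 (0.980 each).

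From D0 to D12 GFP+ in control cells, 8 of the 10 genes rose and the 2 reductase genes fell. All genes gave 40.1% called higher and 40.2% called lower, with a median of -0.01, against a median of 1.58 for the 10. The MCM genes rose by 2.09 ± 0.09 (Mcm7, adjusted p = 2.64e-17), 1.98 ± 0.07 (Mcm5), 1.97 ± 0.09 (Mcm3), 1.92 ± 0.07 (Mcm2), 1.78 ± 0.07 (Mcm6) and 1.22 ± 0.10 (Mcm4), each in log2 and with no overlap of libraries. Mcm5 went from 1143 and 1196 to 4586 and 4614. Pcna rose by 1.37 ± 0.14, from 8736 and 9430 to 22914 and 24144, and Cdc45 by 0.98 ± 0.13, from 495 and 496 to 916 and 1042. Rrm2 fell by 0.56 ± 0.12 (adjusted p = 8.06e-05), and Rrm1 by 0.26 ± 0.09, from 6386 and 6407 to 5092 and 5620 (adjusted p = 0.0142). The Rrm1 call was lost without D0 control replicate 2 (adjusted p = 0.051), without D12 GFP+ control replicate 1 (0.142) and with median-of-ratios scaling (0.0671), and 1 gene then fell.

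The neighbouring steps of replication were read from lists of other genes in the same comparison. Of 9 origin licensing genes 7 rose and 1 fell (median 1.12), with Cdt1, which loads the MCM ring, at 2.16 and the origin subunit Orc5 at 2.08, while Orc4 fell by 0.77. Of 12 helicase activation genes 10 rose and 0 fell (median 1.14), among them Ticrr, which helps load Cdc45, at 2.93 and Mcm10 at 2.41. Of 12 polymerase and primase genes 9 rose and 1 fell (median 1.13). Pold1, the catalytic subunit of polymerase delta, was at 2.38 and its partner Pold2 at 2.12, and the small subunit Pold4 fell by 2.16. Of 16 clamp loader and fork genes 15 rose (median 1.23), with the fork protection factor Timeless at 2.86 and DNA ligase Lig1 at 2.25. The nucleotide supply list was the exception in its median, 0.08. Only Dut (1.80) and Dtymk (1.32) of its 8 genes rose, and Rrm2b, the p53-induced reductase subunit, fell by 0.74. The other 5 did not pass and lay between -0.18 (Tk1) and 0.25 (Tyms). All 3 further MCM relatives rose (Mcm8 at 1.93 and Mcmbp at 0.97 among them), as did 11 of 12 mitosis genes, with Bub1b at 2.59 and Kif11 at 2.06. Among 20 G1/S regulators 11 rose and 6 fell, with E2f2 at 2.32, Myc at 1.93, Ccne2 at -1.41 and Cdkn1a at -1.22. Myc is also in the OSKM cassette, and reads of its endogenous and delivered copies cannot be told apart here. These lists, like the 10 genes, were drawn up with earlier results of these data known, so their counts are descriptions beside the shares of all genes.

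**Figure D2:**
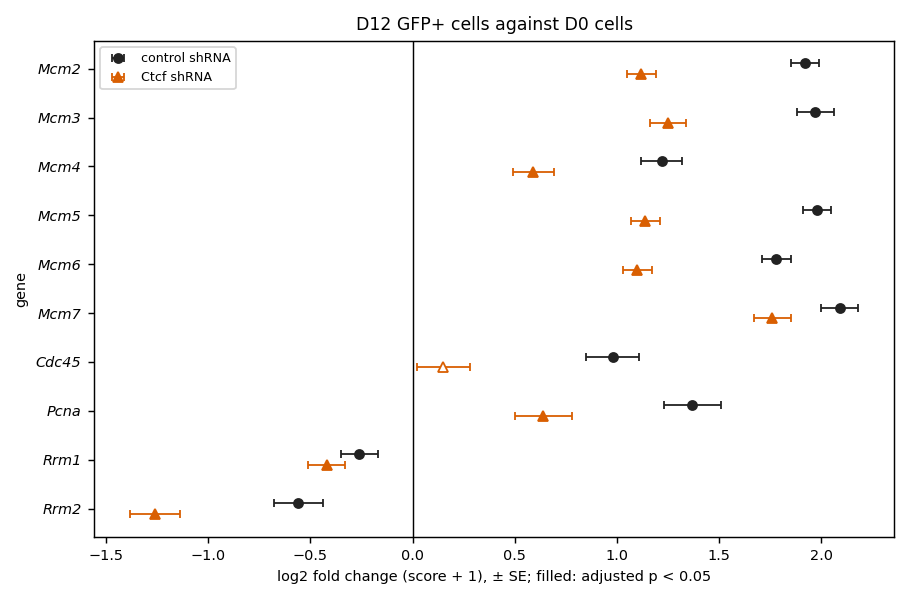
Log2 fold change of log2(score + 1), D12 GFP+ minus D0, with its standard error (horizontal axis) for each gene (vertical axis) in control shRNA (black circles) and Ctcf shRNA cells (orange triangles), filled where the adjusted p is under 0.05. In control cells the MCM genes lie between 1.22 and 2.09, and Rrm1 and Rrm2 lie below 0 with both shRNAs.

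Each day, SSEA1+ cells held more mRNA of these genes than Thy1+ cells, and the gap was widest on day 6. On day 3, 9 of the 10 genes were higher in SSEA1+ cells (35.4% of all genes were called higher), with a median of 0.83 and with Rrm2 not passing (0.18 ± 0.12, adjusted p = 0.189). On day 6 all 10 were higher (42.4% of all genes), with a median of 1.71, led by Mcm5 (2.16 ± 0.07, adjusted p = 1.95e-20) and Mcm2 (2.07 ± 0.07). On day 9 all 10 were higher (38.8% of all genes), with a median of 1.16. The medians of all genes were 0.09, 0.15 and 0.13. Cdc45 went from 252 and 294 in Thy1+ to 1067 and 1092 in SSEA1+ cells on day 6, a log2 fold change of 1.98 ± 0.13, and Rrm2 from 1877 and 2125 to 4497 and 5152 (1.27 ± 0.12). Libraries of the 2 populations did not overlap for either gene.

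Tested directly, the SSEA1+ over Thy1+ difference grew from day 3 to day 6 for all 10 genes (21% of all genes called higher in this interaction), by 0.34 for Rrm1 to 1.35 for Cdc45. From day 6 to day 9 it shrank for 8 genes (13.1% of all genes called lower), by 0.46 for Mcm4 to 0.77 for Pcna, with Rrm2 at -0.22 and Rrm1 at -0.08 not passing. The Rrm1 call of the first interaction (adjusted p = 0.0441) was lost without any of 6 libraries: D3 Thy1+ replicate 2, D3 SSEA1+ replicate 1 and both replicates of D6 Thy1+ and of D6 SSEA1+. It was also lost with quantile normalization (0.0635), median-of-ratios scaling (0.123) and no variance trend (0.052). The Mcm4 call of the second was lost without D6 Thy1+ replicate 1, D6 SSEA1+ replicate 2, D9 Thy1+ replicate 1 or D9 SSEA1+ replicate 1.

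The change within each population gave the parts of this gap. Thy1+ cells lost mRNA of all 10 genes from day 3 to day 6 (25.2% of all genes called lower), from Rrm1 at -0.26 to Mcm5 at -0.74 and Rrm2 at -0.89, and Pcna went from 9126 and 10570 to 5770 and 6590. The Rrm1 call was lost without D3 Thy1+ replicate 2 or either D6 Thy1+ library, with quantile normalization (adjusted p = 0.0585) and with median-of-ratios scaling (0.0803). From day 6 to day 9, 6 genes rose in Thy1+ cells (10.8% of all genes called higher), led by Pcna (0.56), and Rrm1 fell by 0.34 (13.1% called lower). That count of 6 was 3 without D6 Thy1+ replicate 1, without D6 Thy1+ replicate 2 or without D9 Thy1+ replicate 1, and Rrm1 lost its call without D6 Thy1+ replicate 1 or D9 Thy1+ replicate 1. In SSEA1+ cells 5 genes rose from day 3 to day 6 (23.8% of all genes called higher), with Cdc45 first at 0.79 ± 0.13. From day 6 to day 9, 6 fell (27% of all genes called lower), from Mcm5 at -0.28 to Cdc45 at -0.48. From SSEA1+ cells of day 9 to D12 GFP+ cells 8 genes rose (25.5% called higher), with Mcm2 at 1.03 and Mcm3 at 1.00. Rrm1 fell by 0.61 (33.6% called lower), and Rrm2 did not pass (0.18). Of the 8, Cdc45 lost its call without D12 GFP+ replicate 2 or D9 SSEA1+ replicate 1, and Pcna without D9 SSEA1+ replicate 2.

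**Figure D3:**
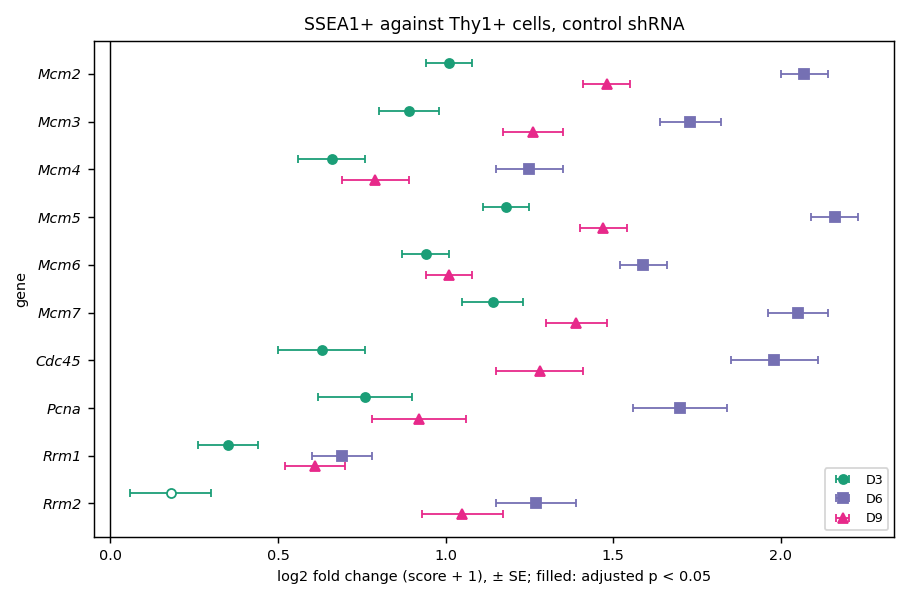
Log2 fold change of log2(score + 1), SSEA1+ minus Thy1+ control cells, with its standard error (horizontal axis) for each gene (vertical axis) on day 3 (green circles), day 6 (purple squares) and day 9 (pink triangles), filled where the adjusted p is under 0.05. The day 6 values are the farthest right for each gene, with Mcm5 at 2.16, and the day 3 value of Rrm2 (0.18) is the only open symbol.

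Measured from D0, SSEA1+ cells had 9 genes higher and Rrm2 lower on each day. All genes gave 39.7%, 42% and 36.8% called higher and 32.5%, 35% and 36.1% called lower on days 3, 6 and 9. Mcm7 led with 1.37, 1.85 and 1.45, and Rrm2 was at -0.50, -0.30 and -0.74. The day 6 call of Rrm2 (adjusted p = 0.0203) was lost without D0 control replicate 1 (0.115), without D6 SSEA1+ replicate 2 (0.196) and with quantile normalization (0.0611). The calls of Cdc45 on day 3 (without either D0 control library or D3 SSEA1+ replicate 2) and of Rrm1 on day 9 (without D9 SSEA1+ replicate 2) were also lost.

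Thy1+ cells stood at or below D0 for most of the genes. On day 3, 3 genes were higher (22.3% of all genes) and 2 lower (20.1%), on day 6 8 were lower (32%), and on day 9 7 were lower (34.5%) and 1, Mcm6, higher (30.3%). Rrm2 was the lowest of the 10 each time, at -0.68, -1.57 and -1.79. The 3 higher genes of day 3 (Rrm1, Mcm6 and Mcm7) all lost their call without D3 Thy1+ replicate 2 (Mcm7 also without D0 control replicate 1), and Mcm2, one of the 2 lower, lost it without either D0 control library or D3 Thy1+ replicate 1. On day 9 the count of lower genes was 4 without D0 control replicate 1 or D9 Thy1+ replicate 2, and it was 3 with median-of-ratios scaling. The Mcm6 call was lost without D0 control replicate 2 or D9 Thy1+ replicate 1.

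Double-negative cells lay between the other 2 populations of the same day in their mean, except for Rrm2 on day 3, which did not pass in either direction against SSEA1+ cells (-0.08, adjusted p = 0.6). Against Thy1+ cells, 7 genes were higher on day 3 (13.9% of all genes called higher), 10 on day 6 (35%) and 10 on day 9 (30.1%), with medians of 0.47, 1.34 and 0.83. The day 3 call of Pcna among these was lost without either double-negative library or Thy1+ replicate 1. It was also lost with median-of-ratios scaling, with no variance trend and with the 2 groups fitted alone. SSEA1+ cells in turn exceeded double-negative cells for 8 genes on day 3 (23.8% of all genes), 8 on day 6 (19.8%) and 7 on day 9 (11.3%), with medians of 0.41, 0.33 and 0.30. Mcm2 was at 0.53, 0.66 and 0.62 on the 3 days. On day 3 the calls of Pcna and Rrm1 were each lost without either SSEA1+ library or either double-negative library. On day 6 Rrm2 lost its call without either double-negative library or SSEA1+ replicate 1. Mcm4 lost its day 6 call without double-negative replicate 1 or SSEA1+ replicate 2. The count of 7 on day 9 was 3 without D9 double-negative replicate 1 or without D9 SSEA1+ replicate 2.

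The other replication lists showed the same order on day 6, SSEA1+ over Thy1+: 9 of 9 licensing genes, 12 of 12 helicase activation genes, 16 of 16 clamp loader and fork genes and 12 of 12 mitosis genes were higher, with medians of 1.53, 1.54, 1.63 and 1.65. All genes gave 42.4% called higher, with a median of 0.15. Of 12 polymerase genes 10 were higher, and Pold4 was lower at -1.65. In the nucleotide list 7 of 8 genes were higher (median 1.09), with Rrm2b not passing (0.16). The fibroblast marker sum was 190604 to 200374 in these Thy1+ libraries and 3205 to 3493 in the SSEA1+ libraries. Myc, a gene of the OSKM cassette whose endogenous and delivered copies share reads, was at 4204 and 4662 against 16589 and 17062. The part of either in the differences of the 10 genes was not tested.

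Ctcf encodes the zinc-finger protein that anchors chromatin loops, and with its shRNA most of the replication genes were lower in 4 of the 11 populations, whereas with all libraries more than 1 was higher only in day 6 Thy1+ cells. Averaged over the 11 populations, 9 of the 10 genes fell (25.8% of all genes called lower), with a median of -0.17 against 0.00 for all genes, and Mcm4 did not pass (-0.06 ± 0.03, adjusted p = 0.127). Rrm2 fell the most of the 10, by 0.80 ± 0.03 (adjusted p = 3.49e-16), and the other 8 fell by 0.12 (Mcm6) to 0.22 (Cdc45).

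Rrm2 was lower with Ctcf shRNA in each population, and in all 11 both shCTCF libraries lay below both control libraries. It scored 1854 and 1974 against 3954 and 4076 in D12 GFP+ cells, a log2 fold change of -1.07 ± 0.12. In SSEA1+ cells it scored 2088 and 2218 against 3880 and 4529 on day 3, 2162 and 2478 against 4497 and 5152 on day 6, and 1958 and 2258 against 3454 and 3652 on day 9. In double-negative cells it fell by 0.78, 1.10 and 1.12 on days 3, 6 and 9, and in Thy1+ cells by 0.57 on day 3 and 0.83 on day 9. The values of D0 (-0.37, adjusted p = 0.0533) and day 6 Thy1+ cells (-0.24, adjusted p = 0.18) did not pass. With the replicate number as a block in the limma fit, both passed (adjusted p = 0.00404 and 0.0348). The D0 value passed without D0 shCTCF replicate 1 (-0.56, adjusted p = 0.0029), and the day 3 Thy1+ call was lost without D3 shCTCF Thy1+ replicate 2 (0.0501) or D3 control Thy1+ replicate 1 (0.0913).

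Broad decreases were seen in 4 populations. In D12 GFP+ cells 9 genes fell (24.7% of all genes called lower), with Mcm2 from 6544 and 6612 to 4134 and 4350 (-0.63 ± 0.07), Cdc45 at -0.64, Mcm5 at -0.57 and Pcna at -0.54, while Rrm1 did not pass (-0.09, adjusted p = 0.413). In double-negative cells 9 fell on day 6 (21.9% of all genes) and 10 on day 9 (13.4%), with Mcm7 at -0.65 on day 6 and Pcna at -0.83 on day 9, where it went from 15184 and 16549 to 8716 and 9070. In Thy1+ cells of day 9, 7 fell (12.1% of all genes), with Mcm3 at -0.47 after Rrm2. Only 3 of these 7 passed when the 2 groups were fitted alone. Single calls that rested on 1 library were those of Pcna in D6 double-negative cells (shCTCF replicate 1 or either control library), of Mcm4 (shCTCF replicate 1 or control replicate 1) and Rrm1 (shCTCF replicate 1 or control replicate 2) in D9 double-negative cells, and of Mcm2 (replicate 1 of either shRNA), Mcm5 (control replicate 1) and Rrm1 (shCTCF replicate 1 or control replicate 2) in D9 Thy1+ cells. Pcna in D9 Thy1+ cells (-0.36, adjusted p = 0.0641) passed without shCTCF replicate 2 (0.0346) or control replicate 2 (0.0486).

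These groups differed in more than the 10 genes. The fibroblast marker sum was 39747 to 40262 with Ctcf shRNA against 13698 to 14535 in D12 GFP+ cells, and the pluripotency marker sum was 21889 to 22176 against 38232 to 38852. In D6 double-negative cells the fibroblast sum was 61336 to 61901 against 28131 to 28785. The pluripotency sum there was 88 to 105 against 315 to 321 (Dnmt3l at 0 in control cells). In D9 double-negative cells, where all 10 genes fell, the fibroblast sums overlapped (90686 to 95090 with Ctcf shRNA and 92459 to 92970 in control cells), while the pluripotency sum was lower, at 1357 to 1441 against 2109 to 2183. In D9 Thy1+ cells the fibroblast sums overlapped too (258216 to 298471 against 291194 to 305724), the pluripotency sum was 137 to 212 against 501 to 547, and Myc was at 1732 and 1968 against 5380 and 5394. Myc was also called lower with Ctcf shRNA in double-negative cells of day 6 (-0.45, adjusted p = 0.00944) and day 9 (-0.62, adjusted p = 0.00134). In D12 GFP+ cells Myc was not called (0.12, adjusted p = 0.493). The part of these in the decreases was not tested.

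In the other 7 populations 1 to 6 of the genes were called. In Thy1+ cells of day 6, 6 genes were higher with Ctcf shRNA (6.83% of all genes called higher), namely Pcna (0.47), Mcm5 (0.46), Cdc45 (0.40), Mcm4 (0.39), Mcm2 and Mcm6 (0.20 each). Pcna went from 5770 and 6590 to 8392 and 8718. The fibroblast marker sum of these cells was 131561 to 132007 with Ctcf shRNA against 190604 to 200374, the pluripotency sums overlapped (38 to 63 against 40 to 42), and the 3 measured of 6 keratinocyte markers summed to 215 to 222 against 56 to 58. Their part in the rise was not tested. The count of 6 rested on each library: it was 1 without shCTCF replicate 1, 2 without shCTCF replicate 2 or control replicate 1, and 3 without control replicate 2 or with the 2 groups fitted alone. In SSEA1+ cells of day 9, Mcm3 was higher (0.29; 4.8% of all genes called higher), a call lost without either shCTCF library or control replicate 1, and Rrm2 was lower (9.04% called lower). In SSEA1+ cells of day 6, Rrm2 and Mcm2 (-0.19) were lower (11% of all genes), and Mcm2 lost its call without shCTCF replicate 1 or either control library. Without that shCTCF library Pcna was called higher there (0.54, adjusted p = 0.00985, against 0.28 and 0.152 with it). At D0 Mcm5 was higher (0.26; 2.93% of all genes called higher), a call lost without shCTCF replicate 2 or either control library. Without D0 shCTCF replicate 1, 4 genes were higher and 1 lower. On day 3, Rrm2 and Mcm5 (-0.31) were lower in Thy1+ cells (2.56% of all genes), Rrm2 and Mcm2 (-0.25) in SSEA1+ cells (3.22%) and Rrm2 alone in double-negative cells (2.54%). Mcm5 lost its day 3 call without shCTCF Thy1+ replicate 1 or control Thy1+ replicate 2, and Mcm2 lost its call without any one of the 4 libraries, so that 1 gene was left each time.

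**Figure D4:**
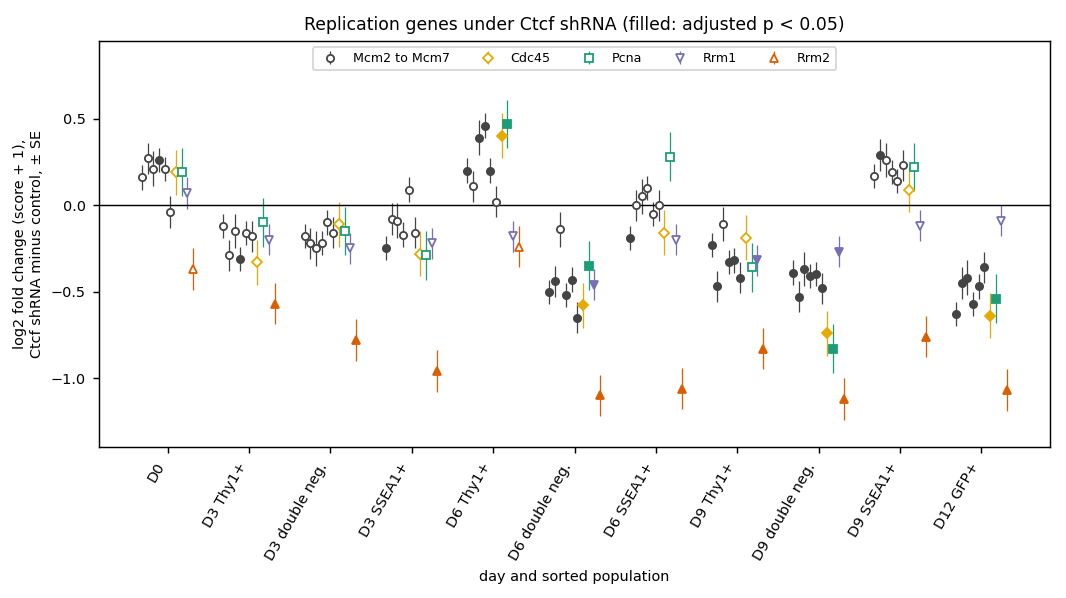
Log2 fold change of log2(score + 1), Ctcf shRNA minus control, with its standard error (vertical axis) for the 10 genes in each day and sorted population (horizontal axis), with gray circles for Mcm2 to Mcm7 and coloured symbols for Cdc45, Pcna, Rrm1 and Rrm2, filled where the adjusted p is under 0.05. Rrm2 lies between -0.24 and -1.12 and is the lowest of the 10 in each population, while the other genes lie on both sides of 0.

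That the Ctcf shRNA difference was not the same in all 11 populations was tested with an F-test. It was called for 9 of the 10 genes (56% of all genes), with F from 6.30 (Mcm4) to 25.0 (Mcm5, adjusted p = 3.4e-09), and not for Rrm1 (F = 2.07, adjusted p = 0.101), which passed without shCTCF replicate 2 of D9 double-negative cells (0.0338) or of D9 Thy1+ cells (0.0428). Rrm2 was called too (F = 6.78, adjusted p = 0.000229), so the size of its decrease differed between populations.

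The rise from D0 to D12 GFP+ was smaller with Ctcf shRNA for most of the genes that rose. In Ctcf shRNA cells 7 genes rose (36.6% of all genes called higher) and Rrm1 and Rrm2 fell (41.1% called lower), with Mcm7 at 1.76, Mcm2 at 1.12, Rrm2 at -1.26 and Cdc45 not passing at 0.15. The difference between the 2 changes was called lower for 8 genes (18% of all genes), from Mcm4 at -0.63 ± 0.15 to Cdc45 (-0.83 ± 0.18) and Mcm5 (-0.83 ± 0.10, adjusted p = 1.55e-07). For Rrm2, which is among the 8, this was a larger fall, as it was at -0.56 in control cells. Mcm7 (-0.32, adjusted p = 0.0531) and Rrm1 (-0.16) did not pass. Mcm7 passed without D0 shCTCF replicate 1 (0.0051) or D0 control replicate 2 (0.0362), and Cdc45 rose in Ctcf shRNA cells without D0 shCTCF replicate 2 (0.32, adjusted p = 0.0481). The effect of Ctcf shRNA on the SSEA1+ over Thy1+ difference changed with the day. On day 3 limma called 0 of the 10 genes (0.201% of all genes called either way). An unadjusted p under 0.05 was reached by 2 of the 10 and by 916 of all 13451 genes. On day 6 the difference was smaller for Rrm2 (-0.82), Mcm2 (-0.40) and Mcm5 (-0.36), 3 genes in all (2.47% of all genes called lower). That count was 1 without D6 shCTCF SSEA1+ replicate 1 or D6 control SSEA1+ replicate 1. Mcm2 also lost its call without D6 control Thy1+ replicate 1, and Mcm5 without either D6 shCTCF Thy1+ library or D6 control Thy1+ replicate 2, and Cdc45 (-0.56) passed without D6 shCTCF SSEA1+ replicate 2 (adjusted p = 0.0196). On day 9 it was larger for 6 genes (10.3% of all genes called higher), from Mcm2 (0.40) to Mcm3 (0.76 ± 0.12). Of these, Pcna (0.58, adjusted p = 0.0352) lost its call without replicate 1 of D9 shCTCF Thy1+, shCTCF SSEA1+ or control Thy1+, or without control SSEA1+ replicate 2. Mcm4 (0.37) passed without D9 shCTCF Thy1+ replicate 2 (adjusted p = 0.0296).

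Averaged over populations, the other replication lists leaned the same way under Ctcf shRNA: 5 of 9 licensing genes, 9 of 12 helicase activation genes, 8 of 12 polymerase genes, 13 of 16 clamp loader and fork genes, 5 of 8 nucleotide genes and 12 of 12 mitosis genes fell. Their medians lay at -0.11, -0.17, -0.14, -0.19, -0.13 and -0.28, beside 0.00 for all genes. Over all genes 25.8% were called lower, and the share called higher is not reported here. Pold2 (-0.46), Mcm8 (-0.46, one of 2 MCM relatives of 3 that fell), Rfc4 (-0.42) and Tk1 (-0.27), the salvage kinase of thymidine, were among those that fell, and Gins4 rose by 0.18. Among the 20 G1/S regulators 8 fell, with E2f2 at -0.35 and Ccna2 at -0.31, and 5 rose, with the repressor E2f6 at 0.26 and cyclin D1 (Ccnd1) at 0.18.

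At day 10 the fitted change with Ctcf overexpression was above 0 for each of the 10 genes, but limma called 0 of them. Their median was 0.32, against 0.02 for all genes. Overexpression replicate 1 was above replicate 2 for each of the 10 genes, as for Mcm4 (3628 and 2998) and Cdc45 (792 and 596). The genes share these libraries, so their directions are not independent. For Rrm1 and Pcna 1 of the 2 overexpression libraries lay below the control libraries, at 4230 against 5205 and 5205 and at 6216 against 6288 and 6288. The 2 control libraries, which held the same value for Mcm6, Pcna and Rrm1, were closer to each other than the other replicate pairs and were averaged as 1 sample. Taken as if scores were counts, their squared difference was 0.327 times the counting variance for the median gene, against 9.70 and 7.26 for the other pairs, and a tail of genes brought the mean ratio to 1.72. Since scores carry no depth, this ranks the pairs and does not test whether the libraries are the same. Kept as 2 samples, they changed no call of the 10 genes. Mcm2 was at 1406 and 1434 in control, 2084 and 2487 with Ctcf overexpression and 1912 and 2036 with the added Smarca5 shRNA. Its log2 fold change over control was 0.68 ± 0.15 (adjusted p = 0.608) and 0.47 ± 0.15 (adjusted p = 1). The other 9 genes were at 0.08 (Rrm1) to 0.43 (Mcm5) with Ctcf overexpression. Smarca5 encodes the SNF2H motor of chromatin remodelers, and the step to the added shRNA gave -0.24 (Cdc45) to -0.06 (Pcna).

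With 5 samples these tests had little reach. They called 0.0618% of all genes for Ctcf overexpression over control, 0.0773% for the added Smarca5 shRNA over Ctcf overexpression and 0.101% for both together over control, and 0 of the 10 genes in each. Ctcf itself was not called (2.16 ± 0.25, adjusted p = 0.217), with libraries at 1234 and 1262 in control and 5110 and 6132 with overexpression. At an unadjusted p under 0.05 the counts of the 10 genes were 2, 0 and 1, beside 786, 185 and 591 of all 12935 genes. The 3 comparisons share libraries. The pluripotency marker sum was 7048 to 7100 in control, 11710 to 16217 with Ctcf overexpression and 9883 to 11728 with the added shRNA. The 6 keratinocyte markers summed to 24037 to 24051, 11321 to 14109 and 14938 to 15621 in the same order, the 3 measured of 6 trophoblast markers to 3676 to 3688, 2084 to 2355 and 3008 to 3525, and the 7 measured of 10 fibroblast markers to 18739 to 18828, 16130 to 16746 and 16436 to 16478. The part of these in the values of the 10 genes was not tested.

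**Figure D5:**
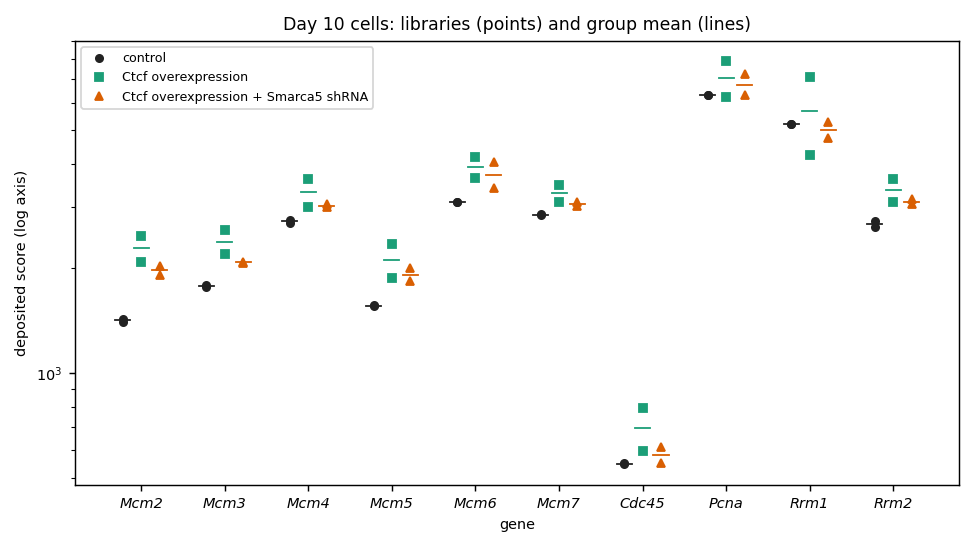
Deposited score (vertical axis, log scale) of the 10 genes (horizontal axis) in day 10 cells with control (black circles), Ctcf overexpression (green squares) and Ctcf overexpression with Smarca5 shRNA (orange triangles), with one point per library and a line at the mean of 2. Mcm2 shows the clearest gap, from 1406 and 1434 in control to 2084 and 2487 with Ctcf overexpression.

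The authors' deposited table of Ctcf overexpression at day 10 gave log2 ratios of 0.54 for Mcm3 (p = 0.00268), 0.51 for Mcm2 (p = 0.0187), 0.49 for Mcm6 (p = 0.00268) and 0.48 for Mcm5 (p = 0.0274), in the direction in which Ctcf was at 2.32. The p of the other 6 genes in the authors' deposited table was above 0.05, with Rrm1 at 0.04 (p = 0.936). The authors' deposited table of Ctcf shRNA at day 10 gave Rrm2 at -0.23 (p = 1.78e-05), Rrm1 at -0.17 (p = 0.000867) and Mcm3 at -0.16 (p = 0.00503), in the direction in which Ctcf was at -0.34, and Mcm5 at 0.14 (p = 0.0292). The authors' deposited tables have no header, so the adjustment behind these p-values is unknown and the direction is read from Ctcf alone.

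A single MEF library and a single iPSC library, counted on mm9 with totals of 16593659 and 9912018 reads, give the ends of the process without replicates. All of the 10 genes but Rrm1 were higher in iPSCs in CPM (reads scaled to a common library total), with no test. Mcm5 was at 38.9 CPM (95% exact Poisson interval 36 to 42.1) in MEFs and 384 CPM (372 to 397) in iPSCs, a log2 ratio of 3.30. Mcm2 was at 2.68, Mcm7 at 2.67, Pcna at 1.74, Cdc45 at 1.68 and Rrm2 at 1.17. For Rrm2 this is the opposite direction to the sorted control cells, where D12 GFP+ against D0 gave -0.56. Rrm1 was lower, at 150 CPM (145 to 156) against 113 CPM (107 to 120), a log2 ratio of -0.41. Myc was lower in iPSCs too, at a log2 ratio of -1.11 (95% interval -1.27 to -0.95). In the sorted control cells, which carry delivered Myc, it rose by 1.93 from D0 to D12 GFP+. The intervals cover counting error only.

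Of the 10 genes 3 have a protein-coding gene that starts within 1000 bases on the opposite strand (GENCODE, GRCm38). Mcm7 (chr5:138164583-138172422, - strand) overlaps Ap4m1, an adaptor protein subunit, over 421 bases, and Cdc45 (chr16:18780447-18811987, - strand) overlaps Ufd1, a cofactor of the segregase p97, over 209 bases. Mcm4 (chr16:15623897-15637400, - strand) starts 466 bases from Prkdc, the DNA-dependent protein kinase. For Mcm7 the 2 annotations differ. The bases shown above as upstream of its RefSeq start (chr5:138171884-138172133) lie inside the GENCODE gene. The overlap with Ap4m1 is that of the GENCODE gene and was not worked out for the RefSeq starts. The library kit named in the labels does not mark strand, so reads from the overlapping bases cannot be told apart. From D0 to D12 GFP+ in control cells, Ap4m1 rose by 0.78 ± 0.07 beside Mcm7 at 2.09, Prkdc rose by 1.71 ± 0.12 beside Mcm4 at 1.22, and Ufd1 fell by 0.75 ± 0.08 while Cdc45 rose by 0.98. Ufd1 went from 1325 and 1458 to 806 and 846. Averaged over populations, Ctcf shRNA gave -0.17 for Ap4m1 (adjusted p = 3.98e-07), -0.07 for Prkdc (adjusted p = 0.0988) and 0.02 for Ufd1 (adjusted p = 0.44). The annotation also holds 2 processed pseudogenes of Pcna, and how the authors' counting shared reads among such copies is not stated, so the level of Pcna is uncertain to that extent.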

How the data were processed

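The submitters' processing notes name RSEM, Trim Galore and FastQC, without versions, and the builds mm10 (GRCm38) and, for the MEF and iPSC libraries, mm9. The values of the sorted-cell and day 10 tables are scores, tag counts that the authors normalized and rounded to whole numbers before they were deposited, and the method of normalization is not given in the sources used here. The MEF and iPSC files hold counts as deposited by the authors, from which CPM were computed. The authors' deposited comparison tables hold mean scores, log2 ratios and p-values, and the log2 ratios and p-values are given as deposited.

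Because the scores are not raw counts, they were tested as log2(score + 1) with limma 3.58.1 (R 4.3.3, variance trend on), on genes at 10 or more in at least 2 libraries, with Benjamini-Hochberg adjustment over all genes. Repeat rows, which carry no Ensembl gene identifier (819 in the sorted cells and 933 at day 10), were left out. All 22 sorted groups entered a single fit with 22 residual degrees of freedom. At day 10 the 2 control libraries were averaged, which left 5 samples and 2 residual degrees of freedom. Other steps used Python 3.11.15 and scipy 1.17.1. The fit was run on simulated scores with independent noise and no differences between groups beyond the planted changes. Such a run checks the steps of the fit and not the calls made here. Group names come from the labels, and the day 10 shRNA samples of the labels were not analysed here. Over all genes, same-numbered replicates did not deviate together (correlations of -0.103 to 0.131 over 231 pairs of groups), so no block was used. This does not cover each gene, and Rrm2 was higher in replicate 1 than in replicate 2 in most groups. Loci and neighbours come from GENCODE, which gives strands, in place of the RefSeq gene table first planned, and promoter sequences from RefSeq. The text names the 10 genes in all comparisons, up to 2 genes called each way with the largest change in each list (D12 GFP+ against D0, and the mean Ctcf shRNA effect), list members that went against their list, those of the 10 genes most alike in pattern that are reported here (1 is not reported here), and the divergent neighbours. The genes and lists were chosen with earlier results of these data known. Alternatives were other scalings, filters, pseudocounts, the replicate block, fits of 2 groups alone and leaving out each library.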

Additional observations from a re-analysis of the deposited data

Results flagged for a closer look

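Differences between groups were themselves tested and passed for the following numbers of the 10 genes. The share of all genes called the same way is given beside each. Under Ctcf shRNA compared with control, the change from D0 to D12 GFP+ was lower for 8 genes (18%). The SSEA1+ over Thy1+ difference was lower under Ctcf shRNA for 3 genes on day 6 (2.47%) and higher for 6 genes on day 9 (10.3%). In control cells that difference grew from day 3 to day 6 for 10 genes (21%). It shrank from day 6 to day 9 for 8 genes (13.1%). The Ctcf shRNA effect differed among the 11 populations for 9 genes by the F-test, as it did for 56% of all genes.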

How the results depend on the processing

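No called value of the 10 genes changed direction under the alternatives run. A pseudocount of 8, a minimum score of 100, no filter and, at day 10, 2 separate control libraries changed no call of a member. The following counts of the 10 genes moved by more than 1.5 times, and the cause was not tested. With median-of-ratios scaling, the count lower in D12 GFP+ than D0 was 1, in D9 Thy1+ than D0 3, under Ctcf shRNA at D0 1 and in D6 SSEA1+ cells 1. This scaling moved the median of all genes by 0.112 for D12 GFP+ against D0 under Ctcf shRNA, by -0.140 for D6 SSEA1+ against Thy1+ and by 0.107 for D9 against D6 SSEA1+ cells. Without a variance trend, the count lower was 1 for D3 Thy1+ against D0 and 1 for Ctcf shRNA in D6 SSEA1+ cells. With quantile normalization, D6 SSEA1+ against D0 had 0 lower and Ctcf shRNA in D9 SSEA1+ cells 2 higher.

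With only the groups compared in the fit, D3 Thy1+ against D0 had 1 lower and D9 Thy1+ against D0 had 0 higher. Under Ctcf shRNA that fit gave 0 higher at D0, 0 lower in D3 Thy1+, 1 lower in D3 SSEA1+, 3 higher in D6 Thy1+, 1 lower in D6 SSEA1+, 3 lower in D9 Thy1+ and 0 higher in D9 SSEA1+ cells.

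Over all genes, the replicate numbers did not pair the samples (median correlation 0.014, 17 of 231 pairs of groups over 0.1, and -0.0829 to 0.0714 at day 10). With the replicate number as a block, D3 Thy1+ against D0 had 4 lower and D9 against D6 Thy1+ 2 lower. Ctcf shRNA then gave 3 higher and 1 lower at D0, 4 lower in D3 Thy1+, 2 lower in D3 double-negative, 1 lower in D6 Thy1+ and 2 higher in D9 SSEA1+ cells. Of 410 single-gene results the block added 21 calls and removed 0.

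Leaving out each library in turn gave these ranges. D12 GFP+ against D0 had 1 to 2 lower. D3 Thy1+ against D0 had 0 to 3 higher and 1 to 2 lower, and D9 Thy1+ against D0 had 0 to 1 higher and 4 to 7 lower. D6 SSEA1+ against D0 had 0 to 1 lower, D9 against D6 Thy1+ had 3 to 6 higher and 0 to 1 lower, and D9 SSEA1+ against double-negative cells had 3 to 7 higher. Under Ctcf shRNA the ranges were 0 to 4 higher and 0 to 1 lower at D0, 1 to 2 lower in D3 Thy1+ and in D3 SSEA1+, 1 to 3 higher in D6 Thy1+, 0 to 1 higher and 1 to 2 lower in D6 SSEA1+ and 0 to 1 higher in D9 SSEA1+ cells. The day 6 interaction with Ctcf shRNA had 1 to 3 lower. Of 2800 single-gene results, 138 lost and 18 gained a call. With 2 libraries a group and normalized scores, no limit from depth can be given.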
